A study of Mus musculus with 8 samples.

Results

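The genes described here encode the subunits, assembly chaperones, activators and inhibitor of the proteasome. They were taken by name from the deposited table: every symbol that begins with Psma to Psmg and a digit, leaving out a pair of interferon-inducible subunit genes and pseudogene models. This gave 46 of 14126 genes, and all 46 passed the filter on low values. Of these, 45 encode proteasome proteins, and Psmc3ip, a meiotic recombination factor gene, matches by name alone.

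The proteasome degrades proteins that have been tagged with ubiquitin chains. Its core particle, 20S, is a stack of rings: alpha subunits gate the entry, and beta subunits line the chamber, where the products of Psmb5, Psmb6 and Psmb7 cut the chain. The regulatory particle, 19S, has a base, whose ATPases unfold the substrate, and a lid, which removes the ubiquitin. Beta cells make large amounts of secretory protein, and misfolded chains are moved out of the endoplasmic reticulum and destroyed by proteasomes.

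RNA of hand-picked pancreatic islets was sequenced in bulk. The mice were NOD/ShiLtJ, aged 7 weeks, a strain prone to autoimmune diabetes. Of the 8 libraries, 4 carry the label WT with the genotype IRE1αfl/fl and 4 the label KO with the genotype written IRE1αβ-/-, and IRE1α, encoded by Ern1, is a sensor of stress in the endoplasmic reticulum. Injected tamoxifen (10 mg/ml), which switches on a Cre recombinase, is recorded for both groups. The labels name neither the promoter that drives Cre nor whether the WT mice carry it, so effects of Cre and of the deletion cannot be told apart. The targeted gene, Ern1, had values of 5549, 5164, 4622 and 4500 in WT replicates 1 to 4 and of 7223, 7390, 6922 and 7216 in KO replicates 1 to 4. This total was higher in KO, by 0.54 ± 0.082 (SE) on the log2 scale (limma-trend, adjusted p = 0.00234), without overlap of the groups. A total over the whole gene does not check a deletion of some exons, so each direction below rests on the labels alone.

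The deposited values, read from their distribution as normalized counts rounded to whole numbers, had sums that lay between 32024139 and 34858983 per library. Sequencing depth is unknown, so precision rests on the spread between libraries. Libraries 1 and 2 of each label stood apart from libraries 3 and 4: 2181 of 14121 genes tested differed between these sets with genotype in the model (limma-trend, adjusted p under 0.05). The sets were defined after the libraries were seen to part that way. This count and the later comparisons between the sets thus describe the split and do not test it. The labels give no batch. The values are those of whole islets, so fewer cells of a type and less RNA per cell cannot be told apart.

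Proteasome genes differed little between the labels. Of the 46 members 1, the lid gene Psmd13, was lower in libraries labelled KO, none was higher and 45 did not pass (limma-trend on log2(value + 1), Benjamini-Hochberg adjustment over all genes, threshold 0.05). Over all 14121 genes tested 20.9% were called, 11.1% higher and 9.81% lower. At an unadjusted p under 0.05 there were 9 members, 7 lower and 2 higher, or 19.6% against 35.0% of all genes. The median log2 fold change was -0.046 over the members and -0.0008 over all genes tested. The median size of the log2 fold change, regardless of sign, was 0.13 for the members and 0.23 for all genes tested.

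A missed threshold does not show equal expression, and the intervals give what the data allow. For 39 of 46 members the 95% interval of the difference lay inside a 1.5-fold change either way, as it did for 49.1% of all genes tested. The 7 members whose interval reached further were Psmb4, Psmb5, Psmd6, Psmd13, Psmg3, Psme2b and Psmc3ip. The members were measured more tightly than most genes: the median standard error of the log2 fold change was 0.10 for them and 0.14 over all genes.

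**Figure D1:**
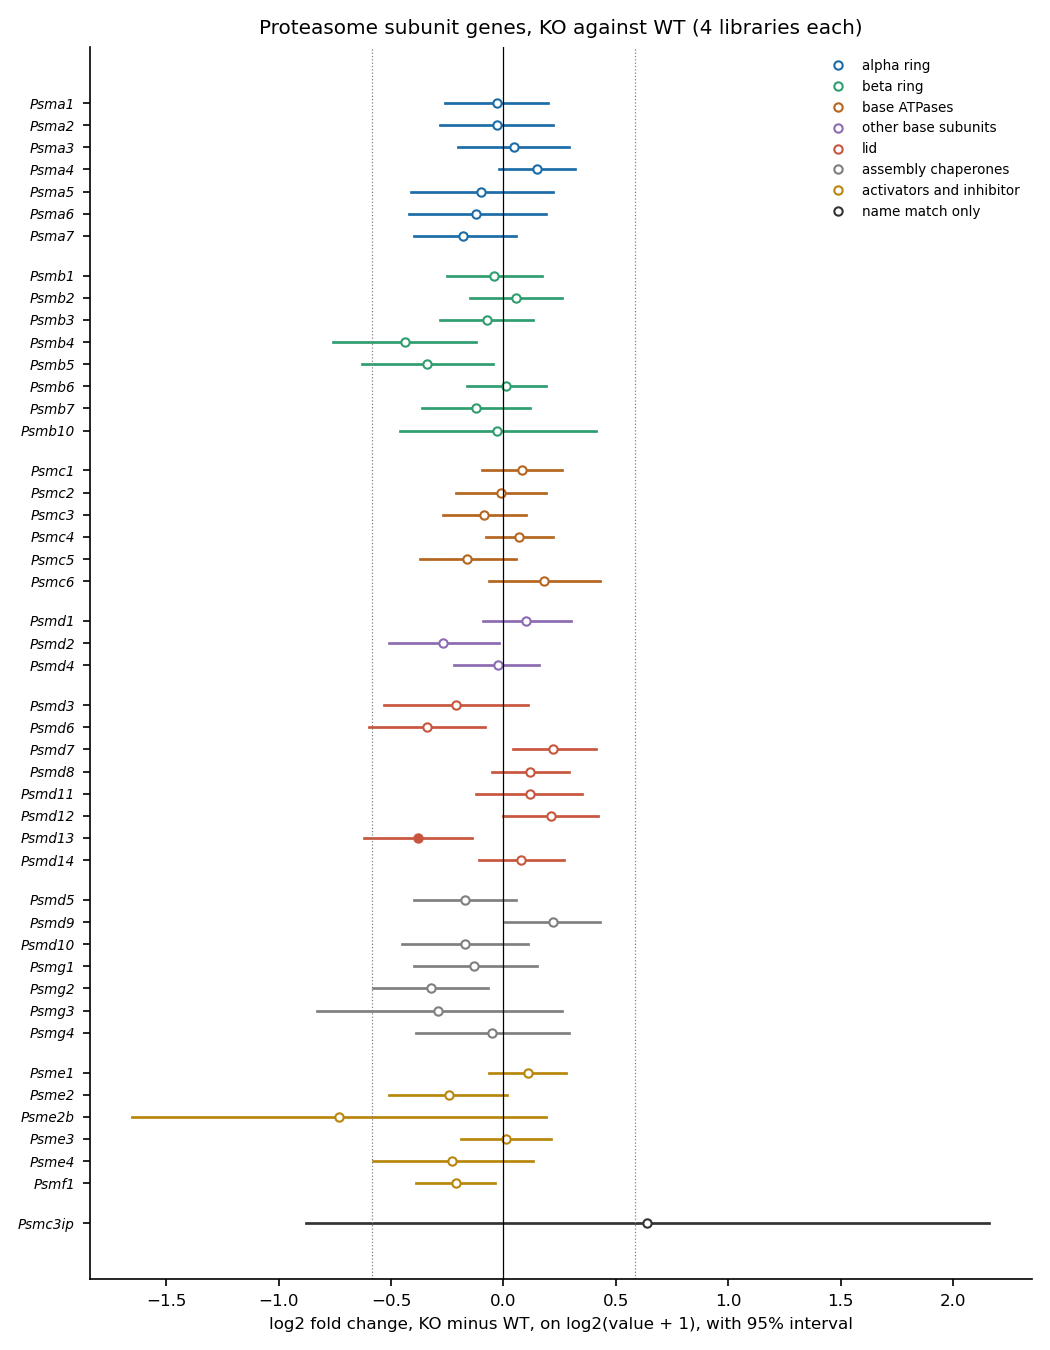
Log2 fold change (KO minus WT, on log2(value + 1)) of each of the 46 members with its 95% interval, coloured by role. The filled point is Psmd13, the member called at an adjusted p under 0.05, and dotted lines mark a 1.5-fold change. Most points lie within 0.25 of 0, and the widest intervals are those of Psme2b and Psmc3ip.

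The promoters of 4 members are shown for what follows: Psmd13, the gene called; Psmb5 and Psmb6, catalytic genes of which the first was called lower in KO under some alternatives and the second under none; and Psme1, an interferon-inducible activator gene. Each runs from 250 bases before to 50 after the RefSeq start site (GRCm38.p6), 5′ to 3′ on the gene's strand. Capitals mark the letters TGACNNNGC in Psmb5 and Psmb6, the core of the antioxidant response element that NFE2L1 and NFE2L2 bind, and, in Psme1, the core of the interferon-stimulated response element, on the opposite strand. Psmd13 has no capitals because it holds none of the motifs searched.
Psmd13, chr7:140882144-140882443, plus strand: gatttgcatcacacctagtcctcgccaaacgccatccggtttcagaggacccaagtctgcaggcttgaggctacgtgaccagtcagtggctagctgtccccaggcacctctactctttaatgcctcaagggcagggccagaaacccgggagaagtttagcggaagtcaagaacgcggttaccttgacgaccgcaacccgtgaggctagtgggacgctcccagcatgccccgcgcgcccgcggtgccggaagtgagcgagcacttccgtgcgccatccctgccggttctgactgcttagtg
Psmb5, chr14:54617946-54618245, minus strand: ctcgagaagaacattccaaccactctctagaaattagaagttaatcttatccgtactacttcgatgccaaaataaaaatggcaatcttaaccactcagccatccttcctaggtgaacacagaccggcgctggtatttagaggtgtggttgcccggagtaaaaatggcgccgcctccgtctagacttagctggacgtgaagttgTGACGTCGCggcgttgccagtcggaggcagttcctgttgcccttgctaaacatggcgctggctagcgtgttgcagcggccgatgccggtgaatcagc
Psmb6, chr11:70525107-70525406, plus strand: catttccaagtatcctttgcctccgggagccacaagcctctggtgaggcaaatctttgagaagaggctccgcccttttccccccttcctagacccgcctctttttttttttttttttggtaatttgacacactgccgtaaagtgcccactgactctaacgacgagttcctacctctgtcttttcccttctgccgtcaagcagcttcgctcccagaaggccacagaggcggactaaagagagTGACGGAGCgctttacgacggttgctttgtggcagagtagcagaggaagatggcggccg
Psme1, chr14:55578244-55578543, plus strand: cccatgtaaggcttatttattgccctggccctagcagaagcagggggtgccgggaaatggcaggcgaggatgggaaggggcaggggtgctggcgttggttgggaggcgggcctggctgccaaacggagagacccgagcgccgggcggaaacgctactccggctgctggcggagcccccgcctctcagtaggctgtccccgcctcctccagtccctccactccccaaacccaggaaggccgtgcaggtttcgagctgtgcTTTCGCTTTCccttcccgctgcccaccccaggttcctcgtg

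In the 39 members with a RefSeq promoter entry, 5 motifs were searched on both strands. Psmb1, Psmb2, Psmb7, Psmc3, Psmd3, Psmd7 and Psmg2 had no entry. TGACNNNGC occurred in 6 members (15.4%) and in 14.0% of all 27025 genes with an entry. In Psmb5 it began at position -47 and in Psmb6 at -9 from the start site. The other members that held it were Psmc6, Psmd9, Psmd12 and Psme4. The interferon-stimulated core (GAAA, 2 bases of any kind, GAAA) occurred in 5 members (12.8%), Psmb3, Psmd4, Psmd9, Psme1 and Psmg4, and in 3.99% of all genes. CCAAT, the NF-Y box, occurred in 13 members (33.3%) and in 41.1% of all genes. TGACGTG, an element bound by XBP1, occurred in Psma1 alone (2.56%) and in 2.22% of all genes. The endoplasmic reticulum stress element, which is CCAAT, 9 bases of any kind and CCACG and so contains CCAAT, was in none of the members and in 0.137% of all genes. TGACGTG and TGACNNNGC can overlap. The 42 promoters of these members were richer in C and G, with a median of 58.2% against 52.7% over all promoters, and in CpG, with a median of 19.0 against 7.00. These shares are descriptions of letters, with no test, and a match is not a binding site.

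In the alpha ring, 7 genes were measured, none passed, and their median log2 fold change was -0.029. Over all genes tested 20.9% were called, a share to set beside the count of each role group below. The differences ran from -0.18 for Psma7 to 0.15 for Psma4, with adjusted p from 0.192 to 0.886 over the ring. The alpha gene with the highest values was Psma3. It had values of 3079, 2456, 2953 and 2509 in WT replicates 1 to 4 and of 2433, 2806, 2968 and 3135 in KO replicates 1 to 4, a log2 fold change of 0.045 ± 0.11 (SE). The groups overlapped over nearly their whole range. Its 95% interval ran from a fold of 0.871 to 1.22.

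The beta ring held the larger differences of the core, though none of its 8 members passed. The median log2 fold change was -0.059, and the highest was 0.058, for Psmb2. Psmb4, a structural subunit gene of the ring, had values of 3287, 2915, 2922 and 2010 in WT and of 1834, 2078, 2052 and 2109 in KO replicates 1 to 4. WT replicates 1 to 3 lay above every KO library, and WT replicate 4 lay among them. The log2 fold change was -0.44 ± 0.14 (adjusted p = 0.0566). Without WT replicate 4 it was -0.59, and without WT replicate 1 it was -0.35 (adjusted p = 0.126). No p is given without WT replicate 4: it was the only WT library within the KO range, so leaving it out separates the groups. The authors' deposited table gives Psmb4 -0.46 with an FDR of 0.00290. Psmb1, the beta gene with the highest mean over the 8 libraries, had values of 2856, 2741, 2436 and 2245 in WT and of 2259, 2550, 2563 and 2569 in KO. Its groups overlapped, with a log2 fold change of -0.044 ± 0.093.

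Among the catalytic subunits, Psmb5, which encodes the chymotrypsin-like site, had values of 947, 1075, 907 and 825 in WT and of 793, 892, 648 and 646 in KO replicates 1 to 4. KO replicates 3 and 4 were the lowest, and KO replicate 2 lay within the WT range. Psmb5 differed by -0.34 ± 0.13 on the log2 scale (adjusted p = 0.0961), and the adjusted p was 0.0249 with the replicate block, which pairs libraries of the same number. The labels do not give such a pairing. The authors' deposited table gives Psmb5 an FDR of 0.0202. Of the 50-base words of its transcript 57.1% occur in transcripts of other genes, most of them in the gene model Gm3375, so its share of reads is uncertain, as for Psma5 and Psmb3 (54.5% and 55.8% shared). Psmb6, of the caspase-like site, had values of 2108, 2280, 2326 and 2397 in WT and of 2100, 2507, 2332 and 2257 in KO. The groups overlapped, with KO replicate 2 above every WT library, and the log2 fold change was 0.012 ± 0.078 (fold of 1.01, 95% interval 0.892 to 1.14). Psmb7, of the trypsin-like site, had values of 2324, 2193, 2012 and 1734 in WT and of 1742, 1792, 1945 and 2093 in KO. These overlapped too, with a log2 fold change of -0.12 ± 0.11 (adjusted p = 0.461).

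Psmb10 encodes the interferon-inducible subunit that takes the place of the Psmb7 product in immunoproteasomes. Its values were 268, 257, 417 and 288 in WT and 343, 355, 265 and 238 in KO replicates 1 to 4. The groups overlapped, and Psmb10 differed by -0.027 ± 0.19 on the log2 scale (adjusted p = 0.941). Among replicates 1 and 2 the KO values were the higher (log2 fold change of 0.41), and among replicates 3 and 4 the lower (-0.46). The interaction term was -0.87, with an unadjusted p = 0.00724 and an adjusted p = 0.143, so the difference between the sets did not pass. Per library, the log2 ratio of Psmb10 to Psmb7 was -3.11, -3.09, -2.27 and -2.59 in WT and -2.34, -2.33, -2.87 and -3.13 in KO. The ratio averaged -2.76 ± 0.41 in WT and -2.67 ± 0.40 in KO (SD, n = 4 each), and the groups overlapped (exact permutation test, two-sided, p = 0.743, and 0.743 adjusted over 3 ratios). None of 7 measured interferon signal genes (Stat2, Irf1, Irf9, Nlrc5, B2m, Ifit1, Ifit3) passed, with a median log2 fold change of -0.27. Stat2 just missed the threshold (log2 fold change of -0.61 ± 0.19, adjusted p = 0.0536), with overlapping groups. The authors' deposited table gives Stat2 an FDR of 6.51e-04. Only Ifit1 lay above 0, at 0.39 ± 0.31. Irf1, a transcription factor gene of the interferon response, had values of 1384, 1366, 10451 and 8208 in WT and of 1008, 1100, 9534 and 5339 in KO replicates 1 to 4, so it was high in replicates 3 and 4 under both labels. The part of interferon signalling in the Psmb10 values was not tested.

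**Figure D2:**
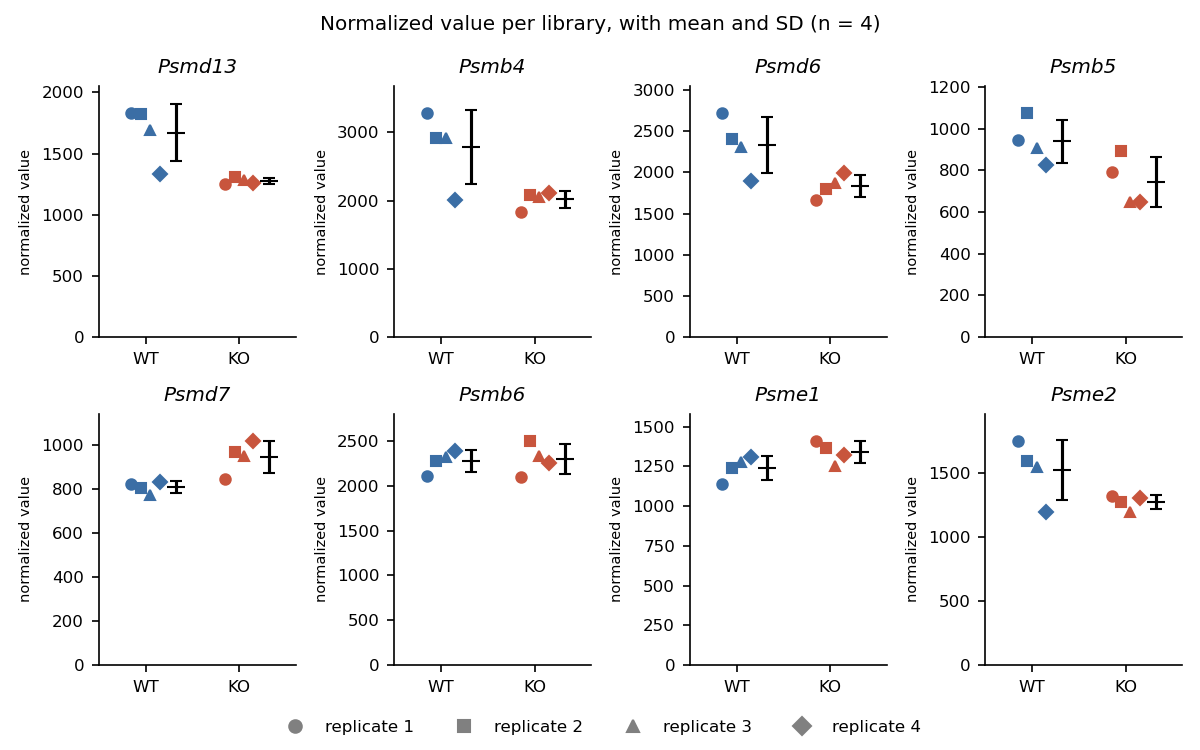
Normalized value of 8 members in each library (WT blue, KO red, one symbol per replicate number), with mean and SD beside each group, n = 4, and axes from 0. For Psmd13, Psmb4, Psmd6 and Psme2, WT replicate 4 lies below the other WT libraries and near the KO libraries, while Psmd7 is higher in every KO library.

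The 6 base ATPase genes, whose products form the unfolding ring, did not pass, with a median log2 fold change of 0.030. They ran from -0.16 for Psmc5 to 0.18 for Psmc6, and no adjusted p was under 0.275. Psmc1, the ATPase gene with the highest mean over the 8 libraries, had 2302, 2254, 2026 and 2032 in WT and 2201, 2187, 2236 and 2487 in KO replicates 1 to 4. KO replicate 4 was the highest and the groups overlapped (log2 fold change of 0.081 ± 0.078). The interval for Psmc1 ran from a fold of 0.937 to 1.19.

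The other 3 base genes did not pass either. Psmd1 and Psmd2 encode the large scaffold subunits and Psmd4 a ubiquitin receptor. Psmd2 had values of 6880, 6934, 5913 and 5158 in WT and of 4849, 5376, 4814 and 5538 in KO replicates 1 to 4. WT replicate 4 fell within the KO range. Psmd2 differed by -0.27 ± 0.11 on the log2 scale (adjusted p = 0.114), and by -0.35 without WT replicate 4 (no p given, as for Psmb4). Leaving out WT replicate 1 instead gave -0.21 (adjusted p = 0.232). Psmd1 had a log2 fold change of 0.10 ± 0.086 and Psmd4 had values from 1576 to 1902 in WT and from 1567 to 1824 in KO.

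Of the 8 lid genes 1 fell and 7 missed the threshold, where 9.81% of all genes tested were called lower. The signs were mixed: 5 of the 8 differences were above 0, and none of those passed. Psmd13 (ENSMUSG00000025487, GRCm38 chromosome 7, 140881968 to 140898643, plus strand, protein coding) encodes a structural lid subunit. Its values were 1832, 1827, 1690 and 1334 in WT and 1248, 1308, 1283 and 1259 in KO replicates 1 to 4. The groups did not overlap, but WT replicate 4, at 1334, lay near the highest KO library, at 1308. Psmd13 averaged 1670.8 ± 233.9 in WT and 1274.5 ± 26.7 in KO (SD, n = 4 each), so the spread was much wider in WT. Psmd13 fell by 0.38 ± 0.11 on the log2 scale (fold of 0.769, 95% interval 0.651 to 0.908, adjusted p = 0.0348). The call ended when any library other than WT replicate 4 was left out (highest adjusted p = 0.0952), while the log2 fold change stayed between -0.33 and -0.39. It also ended in replicates 3 and 4 alone (-0.24, adjusted p = 0.212), and with totals free of hormone and mitochondrial genes (-0.33, adjusted p = 0.0756), where no member was called beside 19.6% of all genes, 7.20% lower. Without WT replicate 4 the log2 fold change was -0.48 (adjusted p = 0.00285). The gene body overlaps Sirt3 on the opposite strand and Gm15542 on the same strand, and the strandedness of the counting is not given in the sources used here, so reads may be shared.

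Psmd6, another structural lid gene, had values of 2721, 2407, 2305 and 1893 in WT and of 1665, 1795, 1872 and 1986 in KO replicates 1 to 4. WT replicate 4 again lay within the KO range. Psmd6 differed by -0.34 ± 0.11 on the log2 scale (adjusted p = 0.0639) and by -0.44 without WT replicate 4 (no p given, as for Psmb4). Leaving out WT replicate 1 instead gave -0.26 (adjusted p = 0.134). Psmd7, the inactive partner of the deubiquitinating subunit, had values of 824, 806, 773 and 834 in WT and of 846, 971, 951 and 1021 in KO. Every KO library was above every WT library, the nearest being KO replicate 1 at 846 and WT replicate 4 at 834. The difference of 0.22 ± 0.081 on the log2 scale did not pass (adjusted p = 0.0818). Psmd12, a lid subunit gene, differed by 0.21 ± 0.093 (adjusted p = 0.146). Psmd3, another, differed by -0.21 ± 0.14, with 0.080 among replicates 1 and 2 but -0.50 among replicates 3 and 4 (adjusted p = 0.130 for the difference between the sets).

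The assembly chaperones bring subunits together and leave the finished particle. None of 7 passed, 6 of the 7 differences were below 0, and the median was -0.17. Psmg2, a chaperone gene of the alpha ring, had values of 496, 455, 492 and 366 in WT and of 370, 347, 360 and 358 in KO replicates 1 to 4. WT replicate 4 lay just below the highest KO library. Psmg2 differed by -0.32 ± 0.11 on the log2 scale (adjusted p = 0.0750), and by -0.42 without WT replicate 4 (no p given, as for Psmb4). Leaving out WT replicate 1 instead gave -0.28 (adjusted p = 0.159). Psmd5, a chaperone gene of the base and the one with the highest values, had 1275, 1181, 1138 and 941 in WT and 977, 995, 960 and 1069 in KO. These overlapped (log2 fold change of -0.17 ± 0.10). Psmd9, of the base too, lay from 263 to 300 in WT and from 320 to 350 in KO, without overlap, and its log2 fold change of 0.22 ± 0.093 did not pass (adjusted p = 0.132).

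The activators open the core without ubiquitin, and none of them passed. Psme1 and Psme2, neighbours on chromosome 14 (55578123 to 55581529, plus strand, and 55587441 to 55591113, minus strand), encode the partners of the interferon-inducible ring PA28αβ. Psme1 had values of 1137, 1243, 1278 and 1312 in WT and of 1412, 1368, 1250 and 1323 in KO replicates 1 to 4. The groups overlapped (log2 fold change of 0.11 ± 0.076, adjusted p = 0.357). Psme2 had values of 1755, 1597, 1546 and 1199 in WT and of 1321, 1277, 1196 and 1306 in KO. WT replicates 1 to 3 were above every KO library and WT replicate 4 was not. Psme2 differed by -0.24 ± 0.12 on the log2 scale (adjusted p = 0.167), and by -0.36 without WT replicate 4 (no p given, as for Psmb4). Leaving out WT replicate 1 instead gave -0.17 (adjusted p = 0.327).

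The partners of PA28αβ were thus compared within each library. The log2 ratio of Psme1 to Psme2 was -0.63, -0.36, -0.27 and 0.13 in WT and 0.10, 0.10, 0.064 and 0.019 in KO replicates 1 to 4. The KO libraries lay close together and WT replicate 4 above them. The ratio averaged -0.28 ± 0.31 in WT and 0.069 ± 0.037 in KO (SD, n = 4 each), a difference of 0.35 (exact permutation test, two-sided, p = 0.143, and 0.429 adjusted over 3 ratios, where 0.0286 is the smallest p that 4 against 4 can give). Without WT replicate 4 the difference was 0.49. No p is given for that choice: this library alone kept the WT and KO ratios from separating, so leaving it out fixes the outcome. Leaving out any other library gave a difference of 0.24 to 0.37 (exact permutation test, p from 0.143 to 0.171 before adjustment). Psme2b, a copy of Psme2 on chromosome 11, had 50, 51, 50 and 18 in WT and 18, 19, 31 and 27 in KO. WT replicate 4 was again the low WT library. Its log2 fold change of -0.73 ± 0.41 did not pass (adjusted p = 0.242). Of the 50-base words of the Psme2 transcript 59.3% occur in other genes, most of them in Psme2b, and of those of Psme2b 69.3%, so the division of reads between the pair is uncertain.

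Psme3, encoding the nuclear activator PA28γ, had values of 1798, 1600, 1784 and 1831 in WT and of 1594, 1751, 1733 and 2012 in KO replicates 1 to 4. The groups overlapped, with a log2 fold change of 0.013 ± 0.088. The log2 ratio of Psme1 to Psme3 was -0.50 ± 0.12 in WT and -0.40 ± 0.18 in KO (SD, n = 4 each; exact permutation test, two-sided, p = 0.343, adjusted 0.514). Psme4, encoding the activator PA200, had values of 6367, 5675, 4356 and 3824 in WT and of 4530, 4607, 3907 and 3951 in KO. The WT range enclosed that of KO (log2 fold change of -0.23 ± 0.16, adjusted p = 0.348), and the difference was -0.10 without WT replicate 1 and -0.35 without WT replicate 4. It was lower in replicates 3 and 4 than in 1 and 2 (log2 difference of -0.39, adjusted p = 0.0169). So were Psmb5 and Psmg3, and these 3 were the members called between the sets, where 15.4% of all genes were called, 6.06% lower.

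Psmf1, encoding the inhibitor PI31, had values of 1481, 1442, 1423 and 1382 in WT and of 1308, 1305, 1100 and 1236 in KO replicates 1 to 4. Every KO library was below every WT library. The log2 fold change was -0.21 ± 0.078 (adjusted p = 0.0839), which did not pass. In a model with a term for the library set it was -0.21 as well, with an adjusted p = 0.0404. Psmc3ip had values of 53, 246, 59 and 43 in WT and of 323, 63, 61 and 160 in KO, a scatter within each group that left its log2 fold change at 0.64 ± 0.67 (adjusted p = 0.545). It was 0.16 without KO replicate 1, 0.37 without WT replicate 4, 1.2 without WT replicate 2 and 0.088 with array weights.

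Counted by the values alone, the groups did not overlap for 4 members, Psmd13 and Psmf1 lower and Psmd7 and Psmd9 higher in KO, beside 25.9% of all genes (12.3% lower, 13.6% higher). By an FDR under 0.05 in the authors' deposited table, Psmb4, Psmb5, Psmd6 and Psmd13 were lower and no member higher, beside 29.3% of all genes, 13.1% lower. With the replicate block, Psmb5 and Psmd13 were called lower, beside 25.8% of all genes, 11.7% lower. A term for the library set gave 5 lower (Psmb4, Psmb5, Psmd6, Psmd13 and Psmf1), beside 31.9%, 14.9% lower. With array weights, which give noisier libraries less weight, 8 were lower and 2 (Psmd7 and Psmd12) higher, beside 28.3% (13.8% lower, 14.6% higher). Leaving out WT replicate 4, 7 were lower (Psmb4, Psmd2, Psmd6, Psmd13, Psmg2, Psme2 and Psme2b), beside 23.2%, 11.3% lower. WT replicate 4 was the lowest WT library for each of these 7. Leaving it out thus widens each difference, and no conclusion is drawn from this count. Leaving out any other library, no member was called except Psmb5, lower without KO replicate 2, beside 16.3%, 14.1% and 16.1% of all genes without WT replicates 1, 2 and 3 and 14.6%, 17.3%, 14.7% and 14.4% without KO replicates 1 to 4. Called members in either direction took a smaller share than called genes in each of these counts, but with array weights and without WT replicate 4 the share of members called lower was above that of all genes. The calls without WT replicate 4 include both Psme2 and Psme2b, whose transcripts share much of their sequence, so these may not be separate calls.

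The 46 members also differed between libraries of the same label. The median log2 deviation of the members from their own means over the 8 libraries was 0.14, 0.12, -0.012 and -0.12 in WT replicates 1 to 4 and -0.075, 0.011, -0.065 and 0.019 in KO replicates 1 to 4. The same median over all genes stayed between -0.009 and 0.010. WT replicate 1 was the highest WT library for 27 of 46 members and WT replicate 4 the lowest for 26. The summed values of the members took 0.238%, 0.234%, 0.223% and 0.198% of the total in WT replicates 1 to 4 and 0.205%, 0.220%, 0.210% and 0.236% in KO replicates 1 to 4. The range was thus as wide among WT libraries as over all 8.

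**Figure D3:**
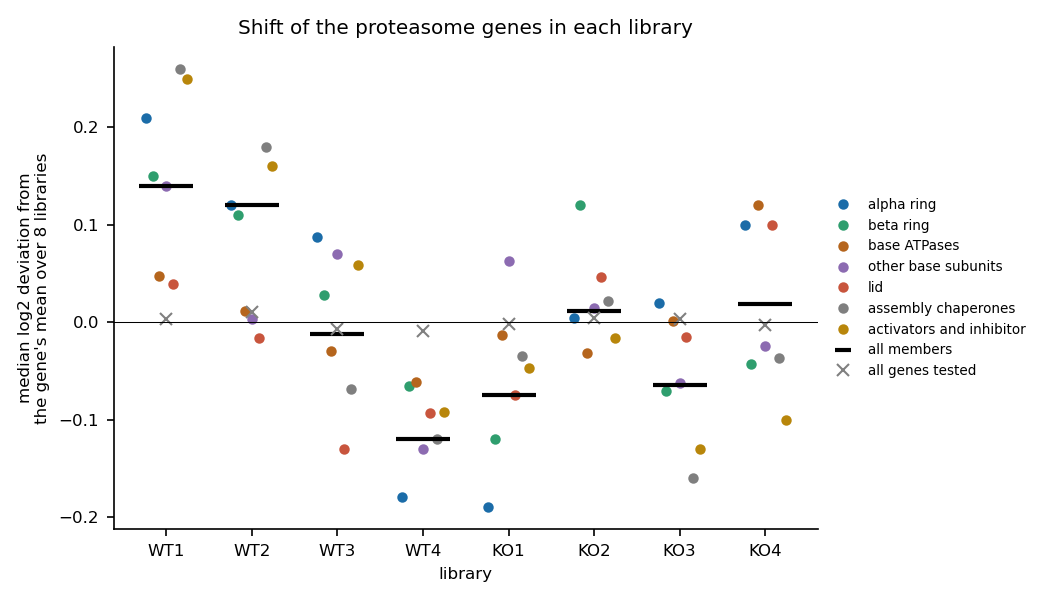
Median log2 deviation of each role group from its genes' means over the 8 libraries, by library (coloured points), with the median of all 46 members (black bars) and of all genes tested (grey crosses). The members' median is 0.14 in WT1 and -0.12 in WT4, while all genes stay near 0.

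Fitted within the sets of replicate numbers, the members' median log2 fold change was -0.13 for replicates 1 and 2 but 0.025 for replicates 3 and 4. Among replicates 1 and 2 alone 8 members were lower (Psmb4, Psmb7, Psmd2, Psmd6, Psmd13, Psme2, Psme2b and Psme4) and none higher, beside 22.9% of all genes called, 10.8% lower. Among replicates 3 and 4 alone Psmb5 and Psmd3 were lower and Psmc6 higher, beside 22.7%, 11.4% in each direction. Of the members none had an interaction term that passed (lowest adjusted p = 0.130), beside 0.0991% of all genes. At an unadjusted p under 0.05 there were 12 members (26.1%) and 18.8% of all genes. These sets were defined by replicate number, after the libraries were seen to part that way.

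Levels were compared between genes as normalized value per kilobase of the annotated principal transcript (GENCODE M21), in WT. Within the core, where each ring takes the same number of each subunit, the alpha genes ran from 856 for Psma2 to 2163 for Psma7, a ratio of 2.53. The constitutive beta genes ran from 1044 for Psmb5 to 2854 for Psmb6. Psma1 and Psma6, at 1562 and 1564, did not differ beyond their spread. Psmb10 stood far below, at 235. The ATPase genes were the most even group, from 914 for Psmc6 to 1355 for Psmc4, a ratio of 1.48. Lid genes ran from 339 for Psmd11 to 1681 for Psmd6. Assembly chaperone genes were lower, from 110 for Psmd9 to 427 for Psmg2. These levels depend on the transcript length used and on untranslated ends, which the counting may treat otherwise.

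**Figure D4:**
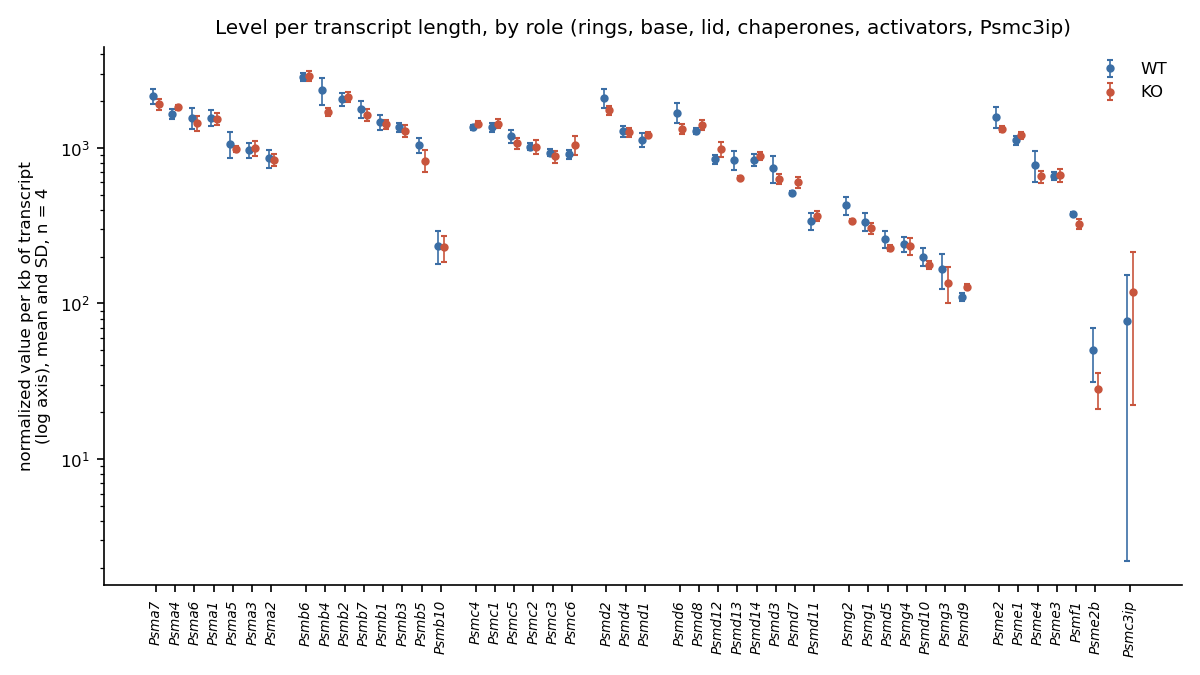
Normalized value per kb of principal transcript on a log axis, mean and SD over 4 libraries, for WT (blue) and KO (red), genes ordered within each role by their WT level. Core, base and lid genes other than Psmb10 lie between 339 and 2854 in WT, chaperones between 110 and 427, and Psme2b and Psmc3ip lie lowest.

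Other genes of the pathway were given by lists. Of 16 measured partners of the proteasome 2 fell and 14 missed the threshold, with a median log2 fold change of -0.050. Beside this, 9.81% of all genes tested were called lower. Fbxo7, which encodes an F-box protein that binds PI31, the product of Psmf1, had values of 1226, 1163, 960 and 924 in WT and of 572, 667, 744 and 698 in KO replicates 1 to 4. It fell by 0.67 ± 0.12 on the log2 scale (adjusted p = 0.00587), and the groups did not overlap. Txnl1, which encodes a thioredoxin-like protein bound to 19S, fell by 0.31 ± 0.092 (adjusted p = 0.0418). The remaining 19S subunit genes Adrm1 and Sem1 and the core maturation factor gene Pomp did not pass, with log2 fold changes of -0.12, 0.10 and -0.14.

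Of 11 regulators of proteasome genes 1, Nfyc of the NF-Y factor, fell by 0.36 ± 0.090 (adjusted p = 0.0212) and 10 did not pass. Among these 10, Mafg differed by -0.41 ± 0.21 (adjusted p = 0.202), with overlapping groups. The authors' deposited table gives Mafg an FDR of 6.11e-04 and Nfyc one of 0.00859. The share of all genes tested that were called lower was 9.81%. Nfe2l1, whose product raises proteasome transcription when the proteasome is inhibited, was at 7071.5 ± 207.4 in WT and 6915.2 ± 509.9 in KO (SD, n = 4 each), with a log2 fold change of -0.035 ± 0.074 (adjusted p = 0.785). None of 6 ubiquitin supply genes passed. Among them Ubb, a polyubiquitin gene, differed by -0.41 ± 0.14 on the log2 scale (adjusted p = 0.0775).

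Cell type markers differed between the labels, given here as the range of their summed value. In such sums the most abundant genes of a list weigh most. Of 7 beta cell markers 5 fell (4838143 to 5407527 in WT, 2133968 to 3036497 in KO). Of 6 alpha cell markers 5 rose (399174 to 1039766 against 1910601 to 2611122), as did all 4 delta and PP cell markers (101132 to 167376 against 272427 to 383774). Of 5 ductal markers 1, Spp1, rose (5608 to 6525 against 11116 to 26983), and of 5 measured T and B cell markers 1, Cd79a, fell (335 to 989 against 344 to 507), while Cd3e, Cd3g and Cd8a were not analysed here. The ductal sums followed mostly Spp1, at 951 to 1500 in WT and 6547 to 19589 in KO. Krt7 averaged 4534.2 in WT and 4558.0 in KO. The scarcer Sox9, Krt19 and Cftr had log2 fold changes of 1.46, 1.81 and 1.13 that did not pass. None passed among 7 acinar (15681 to 218173 against 113046 to 339964), 8 macrophage (1980 to 3597 against 2713 to 3549), 4 endothelial (8713 to 11000 against 9163 to 14397), 5 stellate (1566 to 7378 against 6589 to 13936) and 2 erythroid markers (581 to 2876 against 661 to 1917). The median log2 fold change was nevertheless 1.65 for the acinar and 1.32 for the stellate markers, with wide scatter between libraries. The authors' deposited table gives an FDR under 0.05 to every acinar marker but Amy2a5 (0.403) and every stellate marker but Acta2 (0.277). A shift in acinar and stellate content is thus not excluded. The part of cell composition in the values of the members was not tested.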

How the data were processed

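Islets of 8 mice, 4 per genotype by the series' design text, gave 1 library each. The submitters' processing notes name STAR 2.5.3a, RSEM 1.2.31, edgeR 3.16.15, bcl2fastq 2.20 and GRCm38.p5, without settings or strandedness. The 8 per-library columns that the authors deposited hold whole numbers, taken from their distribution to be normalized counts after rounding: they are treated as a score, since no header states the unit. The same table, deposited by the authors, gives their log2 fold change, mean log2 CPM, likelihood ratio score, p-value and FDR. No raw counts were used, so no count test was run.

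Log2(value + 1) was tested with limma-trend (limma 3.58.1, R 4.3.3), which was first tested on simulated data, on 14121 genes that reached 1 or more in 4 or more libraries, adjusted by Benjamini-Hochberg over all of them. Errors of fold changes are limma's moderated SE, and fold changes of low genes are understated on this scale. Pair ratios were tested by exact permutation. Alternatives changed the pseudocount (0.1, 10), the filter, the scaling, the weights, the block and the library set, and left out each library. Same-numbered WT and KO libraries deviated together from their group means (r = 0.327, 0.583, 0.664 and 0.381 for replicates 1 to 4, over 13081 genes averaging more than 50), and were taken as pairs on that ground, not from the labels. Differently numbered libraries within replicates 1 and 2 or within 3 and 4 correlated as well (r = 0.433, 0.454, 0.516 and 0.466), so these correlations follow the library set and do not single out the number. Genes are not independent replicates.

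The members and lists were chosen with earlier results of these data known. Per-library values were given for catalytic, activator and inhibitor genes and, in each role group, for up to 2 called members or the most abundant. Psmb2, Psmb4, Psmc5, Psmc6, Psma4, Psma7, Psmd1, Psmd3, Psmd4, Psmd6, Psmd7, Psmd9, Psmd12, Psmg2, Psmg3, Adrm1, Sem1, Pomp, Irf1, Stat2, Ifit1, Nfe2l1, Mafg, Ubb, Krt7, Sox9, Krt19, Cftr, Amy2a5 and Acta2 were named after their values were seen, as were the motifs and the printed promoters. Psma8 and Psmb11 were not analysed here. Of the pathway lists, 2 genes are not reported here and were left out of the list counts and medians. Gene models are those of GENCODE M21 (GRCm38), where 14114 gene IDs were found.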

Additional observations from a re-analysis of the deposited data

Results flagged for a closer look

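In 5 of the 92 groups of 4 libraries (46 members, WT and KO) a library stood far from the others by Dixon's criterion, about the 1 in 20 that chance gives. Psmc3ip was at 246 in WT replicate 2, against 43 to 59 in the other WT libraries. Psme2b was at 18 in WT replicate 4, against 50 to 51. Psmd8 was at 1845 in WT replicate 3, against 2021 to 2047. Psmb1 was at 2259 in KO replicate 1, against 2550 to 2569, and Psmc1 at 2487 in KO replicate 4, against 2187 to 2236.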

How the results depend on the processing

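With 19 alternatives, the count of members lower in KO, 1 as reported, was 2 with the replicate block, 5 with the library set as a term, 8 in libraries 1 and 2 alone, 2 in libraries 3 and 4 alone, 8 with array weights, 0 with totals that left out hormone and mitochondrial genes, and 0 to 7 when a library was left out. The count higher, 0 as reported, was 1 in libraries 3 and 4 alone and 2 with array weights, and 0 in the other alternatives. The members' median log2 fold change, -0.046 as reported, ran from -0.13 in libraries 1 and 2 alone to 0.025 in libraries 3 and 4 alone. The replicate block changed no other call among the named members than that of Psmb5. Among the 30 members run under every alternative, differences that had not passed changed sign in some fits: in libraries 1 and 2 alone Psma3 (-0.074), Psmb10 (0.41), Psmc1 (-0.054), Psmd3 (0.080) and Psme3 (-0.022); in libraries 3 and 4 alone Psmb1 (0.13), Psmb6 (-0.042), Psmb7 (0.11), Psmc5 (0.030) and Psme1 (-0.010); with the totals above Psmb1 (3.5e-04) and Psmb10 (0.017). Of the other members, Psmd4 and Psmd14 changed sign in libraries 1 and 2 alone and Psma1, Psma2, Psma5, Psma6, Psmc2 and Psmd10 in libraries 3 and 4 alone. With totals that left out hormone and mitochondrial genes, 23 of the 46 members lay above 0 and 23 below, against 17 and 29 as reported. The median was then -0.0023 over the members and 0.0431 over all genes tested. Leaving out WT replicate 1 moved Psmb7 to -0.062, Psmd1 to 0.17, Psmd3 to -0.32, Psmd5 to -0.11 and Psme1 to 0.066, leaving out WT replicate 3 moved Psmd1 to 0.062 and Psmd3 to -0.11, and leaving out WT replicate 4 moved Psmb7 to -0.20 and Psmd5 to -0.26. Leaving out libraries gave -0.0066 to 0.12 for Psma3, -0.11 to 0.0093 for Psmb1, -0.031 to 0.055 for Psmb6, -0.11 to 0.13 for Psmb10, -0.050 to 0.062 for Psme3, -0.022 to 0.26 for the log2 ratio of Psmb10 to Psmb7 and 0.24 to 0.49 for that of Psme1 to Psme2. The cause was not tested. The stricter filter gave no value for Psme2b. With libraries 3 and 4 alone each group has 2 samples, as with 1 and 2.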
